A study of Mus musculus with 8 samples.

Results

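Interferon-stimulated genes and their regulators were followed in mature CD8SP thymocytes, the precursors of naive CD8 T cells, of Ndrg3 control and Ndrg3 knockout mice. The set holds 45 genes, listed by name for their place in the interferon response, out of the 47937 genes in the deposited table. Cells were sorted as CD8SP TCRβ+ MHC-I high from the thymus of mice labelled as 6 to 7 weeks old, with 4 Ndrg3ctrl libraries (genotype Ndrg3 +/fl;Lck-cre+) and 4 Ndrg3TKO libraries (genotype Ndrg3 fl/fl;Lck-cre+). Both groups thus carried Lck-cre, which is driven by the proximal Lck promoter and acts in thymocytes, and at least 1 floxed Ndrg3 allele, and the controls kept 1 unfloxed allele. Mice with no floxed allele or without Lck-cre were not analysed here.

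Interferons are secreted proteins that alert cells to viruses, and type I interferons act through a receptor of the Ifnar1 and Ifnar2 chains. The receptor's kinases Jak1 and Tyk2 activate STAT factors, among them Stat2, which joins Irf9 in a complex that binds interferon response elements in the promoters of antiviral genes. In the thymus, where interferons are made without infection by medullary epithelial cells, developing T cells carry part of this programme during their last maturation steps, along with rising surface MHC class I. The comparison of the 2 genotypes asked whether the level of this programme differed when Ndrg3 was removed.

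The letters of the interferon response element stood in the promoters of many of these genes. A search for GAAANNGAAA, on both strands and with overlaps allowed, was made in windows from 250 bases before to 50 bases after each RefSeq gene start (GRCm38.p6). The element lay in 19 of the 36 members with a window, or 52.8%, against 1079 of 27025 genes with a window, or 3.99%, and 1131 of all 32851 windows, or 3.44%. Of the other listed interferon pathway genes with a window, 47 of 103, or 45.6%, held it too. A match is a run of letters and was not tested as a binding site. Stretches upstream of 8 members that hold it are shown as examples from the synthetase, GTPase, effector and ISG15 groups, with no base of the annotated gene, each 5′ to 3′ along the gene's own strand, with GAAANNGAAA or its reverse complement in capitals.
Oas3 (chr5:120777700-120777759, minus strand): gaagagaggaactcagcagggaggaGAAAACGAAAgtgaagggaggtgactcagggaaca
Gbp3 (chr3:142559974-142560025, plus strand): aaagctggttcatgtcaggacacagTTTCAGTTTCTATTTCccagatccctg
Gbp7 (chr3:142530258-142530317, plus strand): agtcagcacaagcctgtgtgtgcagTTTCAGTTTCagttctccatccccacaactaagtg
Ifit1 (chr19:34640760-34640838, plus strand): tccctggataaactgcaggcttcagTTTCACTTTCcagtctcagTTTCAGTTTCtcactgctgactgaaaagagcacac
Ifit3 (chr19:34583348-34583441, plus strand): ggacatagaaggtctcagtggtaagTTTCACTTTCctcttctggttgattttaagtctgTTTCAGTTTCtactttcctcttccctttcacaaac
Rsad2 (chr12:26456538-26456597, minus strand): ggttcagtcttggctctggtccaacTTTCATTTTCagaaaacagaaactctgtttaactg
Bst2 (chr8:71537562-71537627, minus strand): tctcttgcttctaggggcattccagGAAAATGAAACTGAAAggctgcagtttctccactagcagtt
Isg15 (chr4:156200850-156200921, minus strand): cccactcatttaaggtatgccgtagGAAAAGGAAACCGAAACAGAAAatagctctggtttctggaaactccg

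Single and doubled elements were thus spread over the families. The stretches upstream of Ifit1 and Ifit3 each hold the element at 2 separate places, and those of Gbp3, Bst2 and Isg15 hold overlapping copies. The shorter letters TTCNNNGAA, which read the same on both strands and resemble the site of STAT dimers, were in 14 of the 36 members, or 38.9%, in 20 of the 103 other pathway genes, or 19.4%, and in 9.55% of all genes with a window. Neither receptor chain held GAAANNGAAA, and nor did Irf1, Irf3, Irf7, Irf9, Ifit2, Oasl1 and Oasl2 in these windows. Among the 19 members with GAAANNGAAA, 16 had a log2 fold change under 0 with a median of -0.07, and among the 17 without it 13 did, again with a median of -0.07.

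Total counts per library ran from 21126698 to 32668081, so that 3 counts corresponded to 0.0918 to 0.142 CPM (counts scaled to a common library total). Ndrg3 itself, the targeted gene, was at 2336 ± 28.9 normalized counts in Ndrg3ctrl and 1500.1 ± 87.2 in Ndrg3TKO (SD, n = 4 each). These counts cover all exons of the gene, whereas in the floxed allele loxP sites surround only a critical exon. The paper reports by immunoblot that the protein was efficiently lost from Ndrg3TKO thymocytes. All 8 CD8 T cell markers of the labelled cell type were expressed, and none passed the threshold between groups. Red cell genes, 4 of 4, had no count in any library, neutrophil markers summed to at most 0.150 CPM, and macrophage markers to 3.55 to 5.34 CPM in Ndrg3ctrl and 4.38 to 4.95 CPM in Ndrg3TKO. Genes of the Y chromosome had 340.5 CPM in Ndrg3ctrl replicate 2 and 379 and 416 CPM in Ndrg3TKO replicates 2 and 3, against at most 0.0752 CPM in the others, and the labels give no sex.

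All 45 members were expressed. Every member passed the filter on low counts, and the lowest count of any member in any library was 261. The members together took 0.588%, 0.638%, 0.555% and 0.639% of the counts of Ndrg3ctrl replicates 1 to 4, and 0.554%, 0.594%, 0.569% and 0.595% of those of Ndrg3TKO replicates 1 to 4, so the groups overlapped. On the scale of normalized counts (counts scaled by TMM to the mean library total) per kilobase of exon, the median member was at percentile 89.1 of all tested genes. Ifi27l2a, a small interferon-induced membrane protein, stood first with 9847 per kilobase, followed by the GTPase Ifi47 with 2818 and the GTPase Igtp with 2187. Gbp3 stood last with 100.4 per kilobase, at percentile 36.2, next to the radical enzyme Rsad2 with 122 and Oasl2 with 127.

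**Figure D1:**
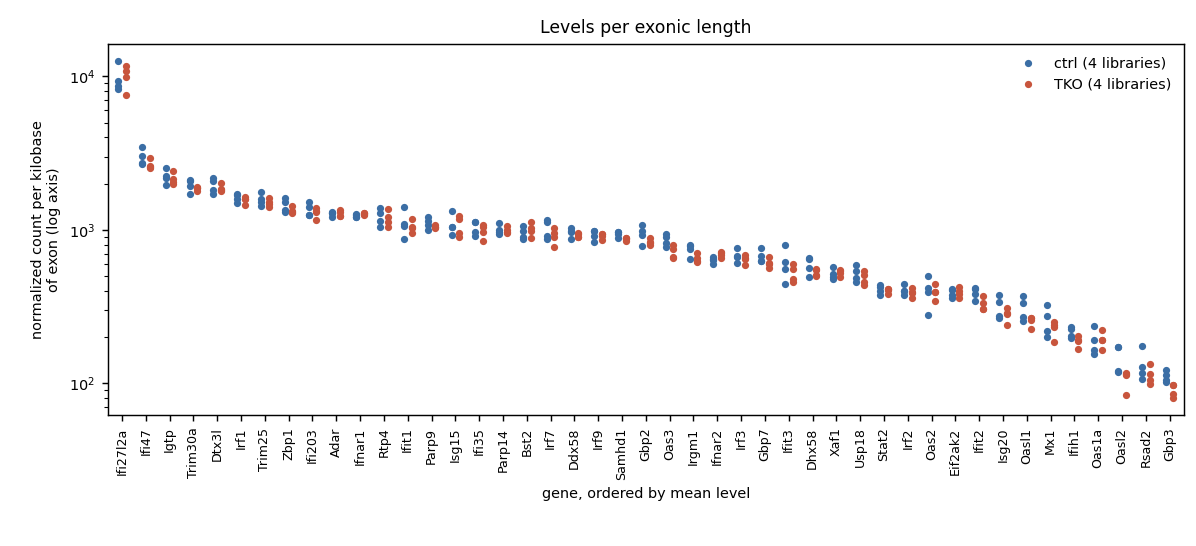
Normalized count per kilobase of exon (log axis) of the 45 genes in the 4 Ndrg3ctrl (blue) and 4 Ndrg3TKO (red) libraries, ordered by mean level. Ifi27l2a stands above all others at 9847 and Gbp3 stands last at 100.4, and the points of both genotypes overlap for most genes.

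No member passed the threshold between Ndrg3TKO and Ndrg3ctrl in the fit that compares the groups without the replicate number. By edgeR's quasi-likelihood test 0 of 45 had an adjusted p under 0.05, where 1.15% of all 14633 tested genes did (0.793% with a higher and 0.355% with a lower level in Ndrg3TKO), and by DESeq2 0 of 45 did, where 2.11% of all genes did. The smallest adjusted p of a member in this edgeR fit was 0.145, that of Oas3. With the replicate number as a block in edgeR, 8 members were called, all lower in Ndrg3TKO, where 2.49% of all tested genes were called lower. At an unadjusted p under 0.05 there were 10 members, against 10.9% of all tested genes, 1 with a higher level in Ndrg3TKO (Ifnar2, background 5.34% in that direction) and 9 with a lower level (Ifih1, Oas3, Oasl1, Oasl2, Ifit2, Samhd1, Gbp2, Gbp3 and Irgm1, background 5.51%).

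The estimates were small, and most had the same sign. The log2 fold change of Ndrg3TKO over Ndrg3ctrl was under 0 in 37 of 45 members, against 51.2% of all tested genes, and the median over the members was -0.07, against -0.0033 over all tested genes. Without Ndrg3ctrl replicate 2 the median was -0.03 with 30 members under 0, and without Ndrg3ctrl replicate 3 it was -0.12 with 41 members under 0. It was -0.11 with 40 under 0 without Ndrg3TKO replicate 2, and -0.06 with 33 under 0 without Ndrg3TKO replicate 1. The size of the median thus depended on single libraries, most on Ndrg3ctrl replicates 2 and 3. The number at an unadjusted p under 0.05 went to 4 without Ndrg3ctrl replicate 2 and to 17 without Ndrg3ctrl replicate 3. It went to 6 without Ndrg3ctrl replicate 4 or without Ndrg3TKO replicate 3. The 95% interval of the fold change lay within 1.5-fold in either direction for 44 of 45 members, against 74.3% of all tested genes, the exception being Oasl2.

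**Figure D2:**
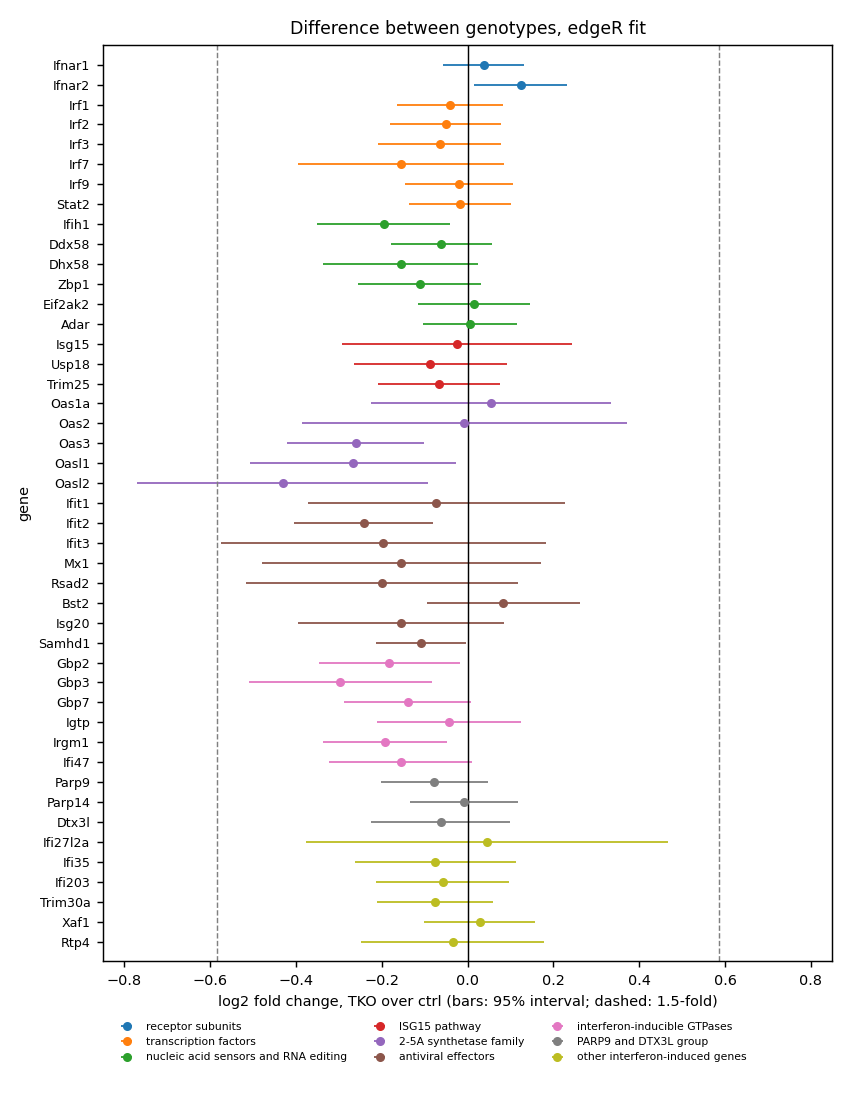
Log2 fold change of Ndrg3TKO over Ndrg3ctrl from the edgeR fit for each of the 45 genes, coloured by role, with 95% intervals and dashed lines at 1.5-fold. The points run from -0.43 (Oasl2) to 0.12 (Ifnar2), 37 of them lie left of 0, and 1 interval, that of Oasl2, crosses a dashed line.

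**Figure D3:**
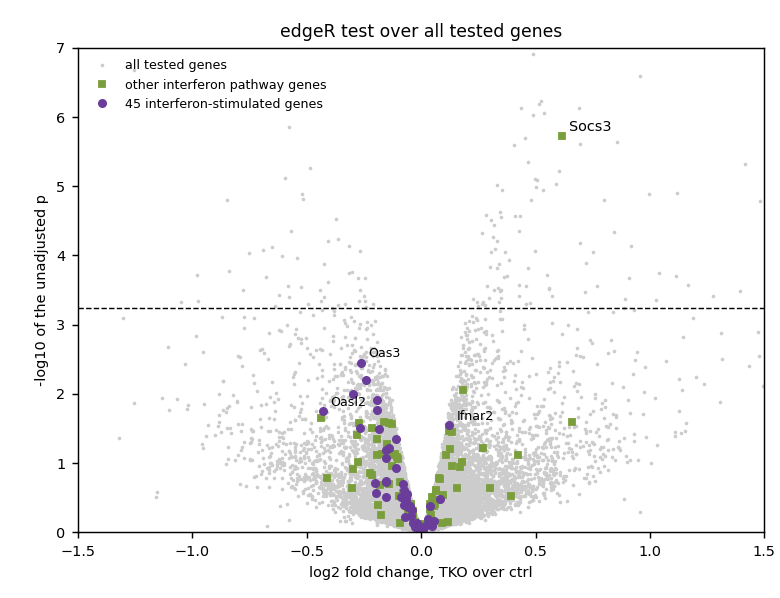
Log2 fold change against -log10 of the unadjusted p in edgeR for all tested genes (grey, 37 beyond the axes not drawn), the 45 interferon-stimulated genes (purple) and 94 other tested interferon pathway genes (green), with the dashed line at the largest p that passed after adjustment. All purple points lie under the line, and of the green points only Socs3 lies above it.

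Both receptor chains had estimates over 0. Ifnar2 (chr16:91372783-91405589, GRCm38), the chain that binds interferon with high affinity, had normalized counts of 2159, 2105, 2204 and 2005 in Ndrg3ctrl replicates 1 to 4 and 2197, 2374, 2369 and 2292 in Ndrg3TKO replicates 1 to 4. The values of Ndrg3TKO replicate 1 and Ndrg3ctrl replicate 3 were close to each other, so the groups overlapped, and the fit gave a log2 fold change of 0.12, a standard error of 0.0505 and an adjusted p of 0.384 by edgeR. Its partner Ifnar1 (chr16:91485238-91507441) had 7551, 7464, 7209.8 and 7223 in Ndrg3ctrl and 7491, 7473, 7653 and 7597 in Ndrg3TKO, with a log2 fold change of 0.04, a standard error of 0.0444 and an adjusted p of 0.817. Ifnar1 was the steadiest member in Ndrg3ctrl, with an SD of 2.33% of the mean. Both genes lie near each other on chromosome 16.

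The transcription factors of the programme differed by less than their spread in each case. Irf9 (chr14:55603571-55610030), the DNA-binding part of the complex with the STAT factors, had normalized counts of 4909, 5294, 4479 and 5274 in Ndrg3ctrl replicates 1 to 4 and 4658, 5041, 4939 and 5036 in Ndrg3TKO replicates 1 to 4, with a log2 fold change of -0.02, a standard error of 0.0588 and an adjusted p of 0.933. Stat2 (chr10:128270559-128292849), its partner, had 2218, 2516, 2379.8 and 2575 in Ndrg3ctrl and 2280.1, 2405, 2430.1 and 2452 in Ndrg3TKO, with a log2 fold change of -0.02, a standard error of 0.0553 and an adjusted p of 0.94. For both, all libraries of Ndrg3TKO lay within the range of the control libraries. Irf7 (chr7:141262706-141266481), the factor that amplifies type I interferon production, had the smallest p among the factors, with 3432, 4242, 3279 and 4396 in Ndrg3ctrl and 2924, 3381, 3597 and 3864 in Ndrg3TKO. The control libraries 2 and 4 were high and Ndrg3TKO replicate 1 was low, the groups overlapped, and the fit gave a log2 fold change of -0.16, a standard error of 0.109 and an adjusted p of 0.653. With a replicate block and Y-linked counts as a term in edgeR, Irf7 had a log2 fold change of -0.25 and an adjusted p of 0.0016. Over all settings tried its adjusted p ranged from 0.0016 to 0.904.

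Irf1 (chr11:53770014-53778374), an activator that interferon gamma also induces, had the highest level per kilobase of the factors, 1595. Its normalized counts were 6325, 6722, 5905 and 6775 in Ndrg3ctrl and 6342, 6544, 5787 and 6317 in Ndrg3TKO, with a log2 fold change of -0.04, a standard error of 0.0576 and an adjusted p of 0.848. Irf2, which competes with Irf1 for DNA, ranged from 2670.2 to 3288 over the 8 libraries, with group means of 2994 and 2889 and a log2 fold change of -0.05. Irf3, which starts interferon production after RNA or DNA sensing, ranged from 2042 to 2604 over the 8 libraries, with group means of 2323 and 2219 and a log2 fold change of -0.07. All 6 factors thus had estimates under 0, between -0.16 and -0.02.

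Among the sensors of foreign nucleic acid, Ifih1 (chr2:62595798-62646255), the receptor MDA5 for long double-stranded RNA, had the smallest p. Its normalized counts were 1657, 1913, 1609.7 and 1853 in Ndrg3ctrl replicates 1 to 4 and 1565, 1548, 1359 and 1663 in Ndrg3TKO replicates 1 to 4. Ndrg3TKO replicate 3 was the lowest of all and Ndrg3ctrl replicates 2 and 4 the highest, while the other libraries overlapped, and the fit gave a log2 fold change of -0.20, a standard error of 0.0723 and an adjusted p of 0.308. Zbp1 (chr2:173206612-173218923), a sensor of left-handed nucleic acid that can start cell death, was the highest sensor per kilobase at 1388, with counts of 4723, 5346, 4614 and 5677 in Ndrg3ctrl and 4524, 4658, 4608 and 5043 in Ndrg3TKO and a log2 fold change of -0.11, a standard error of 0.0671 and an adjusted p of 0.585. Ddx58, the RNA receptor RIG-I, ranged from 6142 to 7217 over the 8 libraries, with group means of 6776 and 6493 and a log2 fold change of -0.06. Dhx58, a relative of both receptors without signalling domains, ranged from 1603 to 2151 over the 8 libraries, with group means of 1933 and 1733 and a log2 fold change of -0.16. Eif2ak2, the kinase PKR that halts translation on double-stranded RNA, ranged from 1845 to 2167 over the 8 libraries, with group means of 1987 and 2007 and a log2 fold change of 0.01. Adar, which edits adenosine to inosine and so keeps self RNA from the sensors, ranged from 9802 to 10881 over the 8 libraries, with group means of 10301 and 10347 and a log2 fold change of 0.01. Adar shares 16.8% of its exon bases with the opposite-strand gene Chrnb2, and how the counting handled strand is not given in the sources used here.

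The 3 genes of the ubiquitin-like ISG15 system had estimates between -0.09 and -0.03. Usp18 (chr6:121245906-121270917), which removes ISG15 from proteins and also damps the receptor, had normalized counts of 1349, 1639.6, 1279 and 1497 in Ndrg3ctrl and 1228, 1500.2, 1277 and 1411 in Ndrg3TKO, with a log2 fold change of -0.09, a standard error of 0.083 and an adjusted p of 0.757. Trim25 (chr11:88999376-89020293), a ubiquitin ligase of the RIG-I route, was highest per kilobase of these at 1539 and had 9152, 10148, 8189 and 8762 in Ndrg3ctrl and 8523, 9307, 8675 and 8099 in Ndrg3TKO, with a log2 fold change of -0.07, a standard error of 0.0665 and an adjusted p of 0.772. In both genes Ndrg3ctrl replicate 2 was the highest library. Isg15 itself (chr4:156199424-156200818) ranged from 678 to 1009.7 over the 8 libraries, with group means of 821 and 804 and a log2 fold change of -0.03, and its 95% interval of -0.29 to 0.24 was among the wider ones.

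The oligoadenylate synthetases and their relatives, which make or resemble the makers of the second messenger that activates RNase L, held the member nearest to the threshold. Oas3 (chr5:120753098-120777661), which responds to long double-stranded RNA, had normalized counts of 5776, 6667, 5461 and 6349 in Ndrg3ctrl replicates 1 to 4 and 4693, 5609, 4645 and 5279.9 in Ndrg3TKO replicates 1 to 4. Ndrg3TKO replicates 1, 3 and 4 lay below every control, and Ndrg3TKO replicate 2 alone lay above the lowest control, so the groups overlapped by 1 library on each side. Group levels were 6063 ± 545 in Ndrg3ctrl and 5057 ± 468 in Ndrg3TKO (SD, n = 4), and edgeR gave a log2 fold change of -0.26, a standard error of 0.0745 and an adjusted p of 0.145, with a 95% interval of -0.42 to -0.10. Its adjusted p was 0.0479 with Y-linked counts as a term and 0.0484 with no filter on low counts, and over all settings tried it ranged from 2.61e-04 to 0.382.

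Oasl2 (chr5:114896936-114912234), a relative with ubiquitin-like domains, had the largest estimate of the 45 members. Its normalized counts were 759, 1092, 768 and 1098 in Ndrg3ctrl and 749, 739, 533 and 728 in Ndrg3TKO. Every Ndrg3TKO library lay below every control, but the controls split into replicates 1 and 3 at 759 and 768 and replicates 2 and 4 at 1092 and 1098, and Ndrg3TKO replicate 3 lay apart from the other three. Group levels were 929 ± 191 in Ndrg3ctrl and 687 ± 103 in Ndrg3TKO (SD, n = 4), and edgeR gave a log2 fold change of -0.43, a standard error of 0.153 and an adjusted p of 0.315, with a 95% interval of -0.77 to -0.09. Its neighbour Oasl1, which lacks the enzyme activity and restrains Irf7 translation, ranged from 594 to 971 over the 8 libraries, with group means of 802 and 664 and a log2 fold change of -0.27, at an adjusted p of 0.4. Oas1a, a synthetase, ranged from 291 to 444 over the 8 libraries, with group means of 352 and 363 and a log2 fold change of 0.05. Oas2, another synthetase, ranged from 1247 to 2216 over the 8 libraries, with group means of 1769.7 and 1758 and a log2 fold change of -0.01, and its spread in Ndrg3ctrl, an SD of 22.6% of the mean, was among the widest. Members of this family are similar in sequence, and reads shared between copies may have been split or dropped in the counting.

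**Figure D4:**
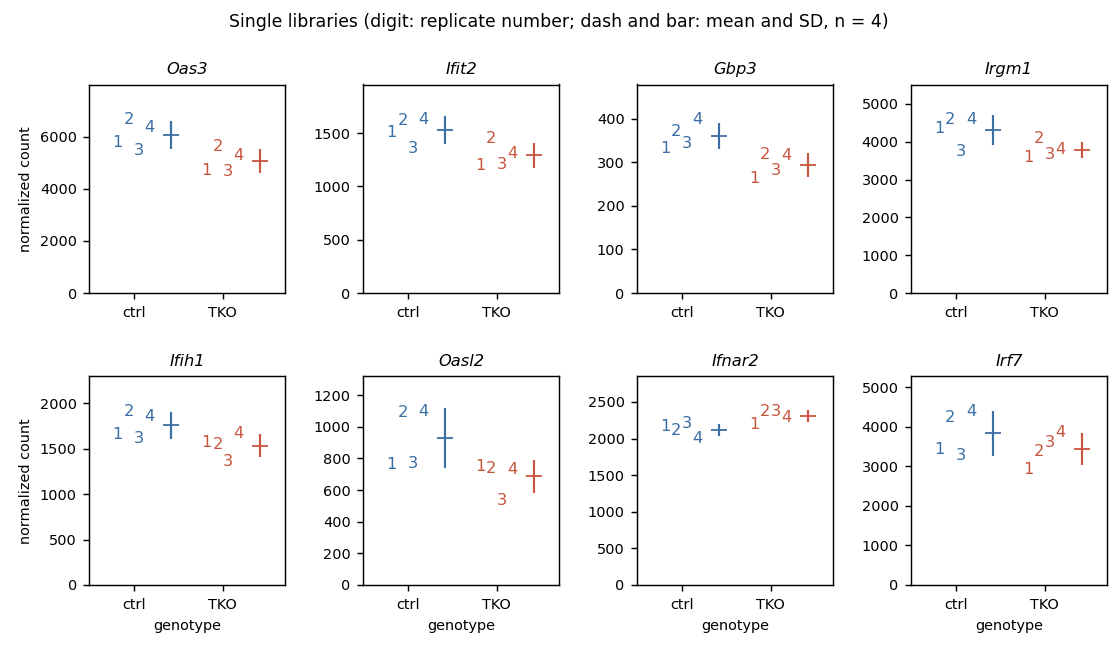
Normalized counts of 8 genes in each library (digit: replicate number; dash and bar: mean and SD, n = 4 per genotype), with axes from 0. Only in Gbp3 and Oasl2 do all Ndrg3TKO libraries lie below all Ndrg3ctrl libraries, and replicates 2 and 4 are the higher controls in Oas3, Ifit2, Gbp3, Irgm1, Ifih1, Oasl2 and Irf7.

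The antiviral effectors were led by Ifit2 (chr19:34550694-34576419), an RNA-binding protein linked to cell death. Its normalized counts were 1507, 1624, 1353 and 1631 in Ndrg3ctrl replicates 1 to 4 and 1199, 1449, 1206 and 1309.8 in Ndrg3TKO replicates 1 to 4. Ndrg3TKO replicates 1, 3 and 4 lay below every control, replicate 2 did not, and the fit gave a log2 fold change of -0.24, a standard error of 0.0755 and an adjusted p of 0.195. Ifit1 (chr19:34640871-34650009), which binds RNA with foreign caps, was the highest effector per kilobase at 1082 and had 2829, 3744, 2314 and 2911 in Ndrg3ctrl and 2551, 3146, 2713 and 2787 in Ndrg3TKO. The controls ran from 2314 to 3744 and so enclosed all Ndrg3TKO libraries, with a log2 fold change of -0.07, a standard error of 0.132 and an adjusted p of 0.89. Ifit3, their partner in the same stretch of chromosome 19, ranged from 771 to 1382 over the 8 libraries, with group means of 1052 and 914 and a log2 fold change of -0.20.

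Rsad2, the enzyme viperin that makes a chain-ending nucleotide, ranged from 429 to 761 over the 8 libraries, with group means of 569 and 493 and a log2 fold change of -0.20. Mx1, a dynamin-like GTPase, ranged from 704 to 1217 over the 8 libraries, with group means of 959 and 858 and a log2 fold change of -0.15. Isg20, an exonuclease, ranged from 449 to 695 over the 8 libraries, with group means of 583 and 522 and a log2 fold change of -0.16. Samhd1, which depletes the nucleotides that reverse transcription needs, ranged from 7709.9 to 8906 over the 8 libraries, with group means of 8601 and 7979 and a log2 fold change of -0.11, at an adjusted p of 0.446. Bst2, the tether that holds budding virus at the cell surface, ranged from 789 to 1014 over the 8 libraries, with group means of 859 and 909 and a log2 fold change of 0.08 and was the only effector with an estimate over 0. Ifit3, Rsad2, Mx1 and Ifit1 were the effectors that varied most among controls, and Ndrg3ctrl replicate 2 was the highest library in each.

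The interferon-inducible GTPases, which act on the membranes around intracellular pathogens, all had estimates under 0. Gbp3 (chr3:142560026-142573209), a guanylate-binding protein, had normalized counts of 332, 371, 344 and 399 in Ndrg3ctrl replicates 1 to 4 and 262, 317, 280.3 and 316 in Ndrg3TKO replicates 1 to 4. All 4 Ndrg3TKO libraries lay below all 4 controls, the nearest pair being Ndrg3TKO replicate 2 and Ndrg3ctrl replicate 1, and edgeR gave a log2 fold change of -0.30, a standard error of 0.0998 and an adjusted p of 0.249. Gbp3 and Oasl2 were the only 2 of 45 members whose groups did not overlap with Ndrg3TKO below, where 3.59% of all tested genes were so, and no member lay the other way, where 3.44% did. Ifi47 (chr11:49076587-49096974), an immunity-related GTPase, was highest per kilobase of these, with 7537, 8528, 6615 and 6704 in Ndrg3ctrl and 6278, 7214, 6390.4 and 6483 in Ndrg3TKO and a log2 fold change of -0.16, a standard error of 0.0773 and an adjusted p of 0.494.

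Irgm1, which regulates the other immunity-related GTPases, ranged from 3588 to 4595 over the 8 libraries, with group means of 4319.6 and 3779 and a log2 fold change of -0.19, at an adjusted p of 0.272. Igtp, a further regulator of this kind, ranged from 3961 to 5088 over the 8 libraries, with group means of 4489.6 and 4353 and a log2 fold change of -0.04, and it shares 162 exon bases with Irgm2 on the same strand. Of the other guanylate-binding proteins, Gbp2 ranged from 1989 to 2688 over the 8 libraries, with group means of 2373 and 2088 and a log2 fold change of -0.18, at an adjusted p of 0.401, and Gbp7 ranged from 3145 to 4246 over the 8 libraries, with group means of 3768 and 3417 and a log2 fold change of -0.14. Over the 6 GTPases the median log2 fold change was -0.17, and 3 had an unadjusted p under 0.05, all lower. So did 3 of the 5 synthetases and relatives, where 5.51% of all tested genes did with a lower level in Ndrg3TKO.

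Parp9 and Dtx3l lie head to head on chromosome 16, where their exons overlap by 458 bases on opposite strands, and their proteins form a ubiquitin ligase complex. Parp9 (chr16:35938470-35972605) had normalized counts of 5273, 5865, 4832 and 5546 in Ndrg3ctrl and 5067, 5239, 4972 and 5096 in Ndrg3TKO, with a log2 fold change of -0.08, a standard error of 0.0583 and an adjusted p of 0.673. Dtx3l (chr16:35926511-35939151) had 11941, 12544, 9735 and 10441 in Ndrg3ctrl and 10576, 11557, 10378 and 10230.2 in Ndrg3TKO, with a log2 fold change of -0.06, a standard error of 0.0755 and an adjusted p of 0.816. In each gene the Ndrg3TKO libraries lay within the range of the controls. Parp14, an ADP-ribosyl transferase nearby, ranged from 8799.9 to 10254 over the 8 libraries, with group means of 9328 and 9270.4 and a log2 fold change of -0.01.

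Of the remaining induced genes, Ifi27l2a (chr12:103442167-103443680) had the widest interval and the highest level. Its normalized counts were 3803, 5866, 3979.6 and 4314 in Ndrg3ctrl replicates 1 to 4 and 3507, 5419, 4584 and 4998 in Ndrg3TKO replicates 1 to 4. Replicate 2 was the highest and replicate 1 the lowest library in both genotypes, and the log2 fold change was 0.05 with a 95% interval of -0.38 to 0.47. Trim30a (chr7:104409025-104465193), which restrains inflammatory signalling, had 7973, 8697, 7058 and 8569.5 in Ndrg3ctrl and 7341, 7830.2, 7722 and 7721 in Ndrg3TKO, with a log2 fold change of -0.08, a standard error of 0.0631 and an adjusted p of 0.708. Ifi203, of the family of interferon-inducible DNA-binding proteins, ranged from 7811 to 10172 over the 8 libraries, with group means of 9058 and 8701 and a log2 fold change of -0.06. Ifi35 ranged from 1454 to 1955 over the 8 libraries, with group means of 1789 and 1696 and a log2 fold change of -0.07. Xaf1, which opposes an inhibitor of apoptosis, ranged from 2259 to 2672 over the 8 libraries, with group means of 2414 and 2461 and a log2 fold change of 0.03, and Rtp4, a receptor chaperone, ranged from 2211 to 2965 over the 8 libraries, with group means of 2589.5 and 2524 and a log2 fold change of -0.03. Ifi203 and Trim30a have close copies in the genome, so their counts are uncertain to that extent.

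The members varied together from library to library in both genotypes. The highest control library was replicate 2 in 28 of 45 members, or 62.2%, against 30.0% of all tested genes, and replicate 4 in 14 members. Replicate 2 was the lowest control in 0 members, against 31.4% of all tested genes, so over all genes it was often the extreme in either direction. The lowest control library was replicate 3 in 32 members, or 71.1%, against 21.9% of all tested genes, and replicate 1 in 12. In Ndrg3TKO, replicate 2 was the highest in 30 members, or 66.7%, against 28.0% of all tested genes, and replicate 1 the lowest in 29, or 64.4%, against 26.5%. Replicates 2 or 4 were thus the highest in 42 of 45 members in each genotype. The members are genes of 1 response measured in the same libraries, so these counts are no independent repeats.

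Each library's median over the members, as a log2 deviation from each member's mean over the 8 libraries, was -0.01, 0.20, -0.10 and 0.10 in Ndrg3ctrl replicates 1 to 4 and -0.14, 0.03, -0.07 and -0.00323 in Ndrg3TKO replicates 1 to 4. Over all tested genes the same medians lay between -0.000428 and 0.0122. The controls spread over 0.30 on this scale and the Ndrg3TKO libraries over 0.17, while the group means differed by -0.09. Ndrg3ctrl replicate 2 and Ndrg3TKO replicate 2, the highest library of each genotype for most members, both carry Y-linked counts, and so does Ndrg3TKO replicate 3, which was the lowest in 10 members. With Y-linked counts as a term in the fit, the median log2 fold change of the members was -0.10, with 40 of 45 under 0. In that fit 1 member was called, Oas3, beside 437 of 14633 tested genes.

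**Figure D5:**
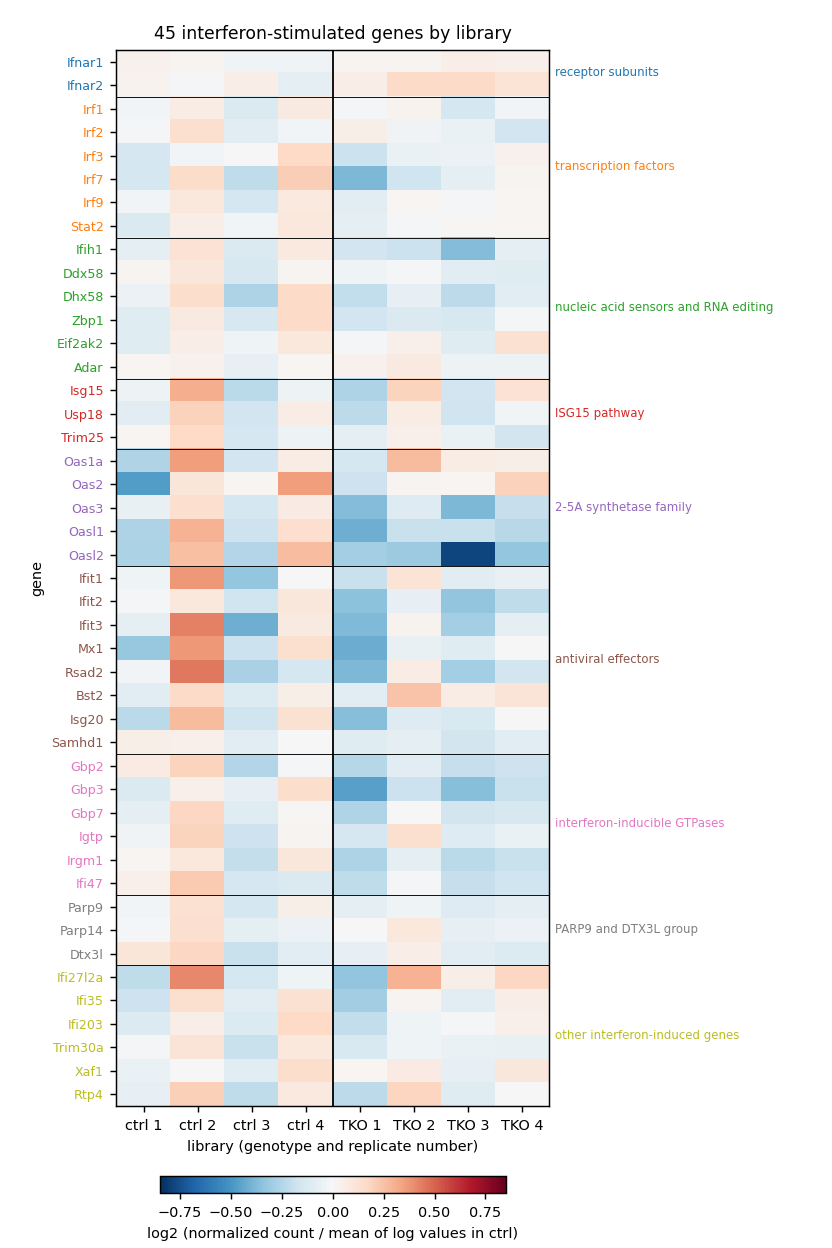
Log2 deviation of each gene's normalized count from its mean log value in the 4 Ndrg3ctrl libraries, for 45 genes (rows, grouped and coloured by role) and 8 libraries (columns). Ndrg3ctrl replicate 2 is red for most genes and replicate 3 blue, Ndrg3TKO replicate 1 is blue for most, and the darkest cell is Oasl2 in Ndrg3TKO replicate 3.

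The ratio of the highest to the lowest library had a median of 1.23 over the members in Ndrg3ctrl and 1.17 in Ndrg3TKO. In 44 of 45 members the control libraries alone spanned a larger ratio than that of the 2 group means, with Gbp3 as the exception, and in 36 of 45 the Ndrg3TKO libraries did. The same share over all tested genes was not counted, so these counts show nothing particular to the members. Oasl2, whose groups do not overlap, is among the 44, so a wider range does not mean overlapping groups. The SD was a larger share of the mean in Ndrg3ctrl than in Ndrg3TKO in 39 of 45 members, against 59.3% of all tested genes, with medians of 9.26% and 7.22%. It was larger in 30 members without Ndrg3ctrl replicate 2, in 32 without replicate 3 and in 38 without replicate 4. The widest members were Ifit3 at 24.3% in Ndrg3ctrl and Ifi27l2a at 17.7% in Ndrg3TKO.

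Around the 45 members, 126 other genes of the interferon pathway were listed, and 94 of them were tested. In edgeR, 1 passed the threshold with a higher level in Ndrg3TKO, none passed with a lower level, and 13 had an unadjusted p under 0.05 (5 higher and 8 lower), with a median log2 fold change of -0.02. DESeq2 called 2. The gene that rose was Socs3, a feedback inhibitor of JAK and STAT signalling that many cytokines induce, with normalized counts of 1077, 903, 947 and 1163 in Ndrg3ctrl and 1594, 1435, 1558 and 1690.1 in Ndrg3TKO and a log2 fold change of 0.62, a standard error of 0.0797 and an adjusted p of 0.000959. Every Ndrg3TKO library lay above every control. Interferon genes themselves were near 0, since none of 18 type I interferon genes was tested, 14 had no count in any library, and the highest count was 2. Ifng, the gene of interferon gamma, had at most 10 counts in a library.

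Neither the receptor's kinases nor the receptor chains for interferon gamma passed the threshold. The kinase Jak1 had group means of 33447 and 31837 and a log2 fold change of -0.07, and the kinase Tyk2 had 3119 and 3113 with -0.00208. The receptor chains for interferon gamma were at 2387 and 2624 for Ifngr1, with a log2 fold change of 0.14 and an adjusted p of 0.413, and at 2353 and 2299 for Ifngr2, with -0.03. Nlrc5, the activator of MHC class I genes, was the second gene called by DESeq2, at an adjusted p of 0.0398, and had 18838, 19061, 20928 and 21342 in Ndrg3ctrl and 23372, 22195, 23106 and 22361 in Ndrg3TKO, with a log2 fold change of 0.18, a standard error of 0.0605 and an adjusted p of 0.229 in edgeR.

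Marker genes of maturation steps and of other cells were read beside the members, and their part in the members' estimates was not tested. Markers of semimature thymocytes, 3 of 3 tested and none called, summed to 585 to 643 CPM in Ndrg3ctrl and 654 to 762 CPM in Ndrg3TKO, so these ranges did not overlap. Most of this sum was Ccr9, with group means of 14312 and 16176 normalized counts. By flow cytometry the paper reports unchanged late maturation markers in CD8SP thymocytes, and its semimature stage is CD69+ and H-2Kb negative. The cells sequenced here were sorted as MHC-I high. Dntt, a gene of less mature thymocytes, had 541, 422, 428 and 409.6 normalized counts in Ndrg3ctrl and 736, 554, 609 and 562 in Ndrg3TKO, so every Ndrg3TKO library lay above every control, with a log2 fold change of 0.45 and an adjusted p of 0.0783 by edgeR. The other tested genes of the same list, that of double-positive thymocytes, went the other way. Rag1 had a log2 fold change of -0.46 and Cd4 of -0.30, with overlapping groups, and Rag2 and Ptcra were too low to be tested. This list of 5 summed to 16.8 to 26.2 CPM in Ndrg3ctrl and 20.9 to 29.0 CPM in Ndrg3TKO, so these ranges overlapped. The 8 mature markers, none called, summed to 4740 to 5310 CPM and 4646 to 5120 CPM. Within them the egress and homing genes Ccr7, Klf2 and S1pr1 had log2 fold changes of -0.26, -0.26 and -0.19, and the MHC class I gene H2-Q7 had 0.28, with adjusted p from 0.0639 to 0.203. B cell markers summed to 11.2 to 13.6 CPM in Ndrg3ctrl and 8.52 to 9.61 CPM in Ndrg3TKO, and Siglech, the defining gene of plasmacytoid dendritic cells, had 1 count in 1 library. Of 5 markers of natural killer and invariant NKT cells 3 were tested and 1 was called, Klrb1c, with means of 8.83 and 51.4 normalized counts. Gzmb went the other way, with means of 19.7 in Ndrg3ctrl and 10.5 in Ndrg3TKO, and was not called. Zbtb16 did too, with 7.09 and 1.61, and was too low to be tested. In both genes every Ndrg3TKO library lay below every control. The paper reports, by CD1d-tetramer staining, a near-complete loss of type I invariant NKT cells from the Ndrg3TKO thymus. The 5 markers summed to 40.2 to 56.1 CPM in Ndrg3ctrl and 44.7 to 50.4 CPM in Ndrg3TKO. Most of this sum was Prf1, with means of 1376 and 1301 normalized counts, and Ncr1 had no count. In sorted bulk cells, fewer cells carrying a gene and less of its RNA per cell cannot be told apart.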

How the data were processed

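RNA of sorted CD8SP thymocytes was sequenced from 4 Ndrg3ctrl and 4 Ndrg3TKO mice (Illumina Stranded Total RNA kit). The authors' processing used cutadapt for trimming, STAR for alignment to GRCm38.p4 and featureCounts for counting per gene, and they deposited the raw counts, which are whole numbers and not normalized. The setting for strand and for reads with several matches is not given in the sources used here.

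Symbols, positions and exonic lengths came from GENCODE M21 (GRCm38), matching 47224 of 47937 genes, or 98.5%. Replicates of a group differed by a chi-square of 9.95 to 33.6 per gene, so none is a duplicate. Counts were filtered with filterByExpr, scaled by TMM and tested with edgeR 4.0.16 (R 4.3.3, robust quasi-likelihood), with Benjamini-Hochberg adjustment over 14633 genes and a threshold of 0.05. DESeq2 1.42.0, other scalings and filters, left-out libraries, a replicate block and a Y-linked term were alternatives, and scaling by library totals alone was added after the data were seen. The floor of 3 counts covers counting error only. Promoter windows came from RefSeq, and 36 of 45 members matched.

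Members and lists were chosen with earlier results of these data known. The genes with values in every library are those whose groups do not overlap, those with the smallest p or the highest level per kilobase of each role, and Ifnar1, Ifnar2, Stat2, Irf9 and Irf7. Of the other pathway genes, those past the threshold and Jak1, Tyk2, Ifngr1 and Ifngr2 are named, and a further gene of this rule is not reported here. Nlrc5 and the marker genes named singly were chosen after their values were seen.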

Additional observations from a re-analysis of the deposited data

Results flagged for a closer look

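Of 98 groups of 4 values tested for a value far from the others, of which chance flags about 1 in 20, or 4.9, 2 stood out. The normalized count of Oasl2 in Ndrg3TKO replicate 3 was 532.6, against 727.7 to 749.2 in the other Ndrg3TKO libraries. Y-linked genes had 340.5 CPM in Ndrg3ctrl replicate 2, against 0 to 0.0752 CPM in the other control libraries.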

How the results depend on the processing

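The replicate numbers were not taken as pairs, since the labels give no shared litter or day and the deviations of same-numbered libraries correlated at over 0.1 in 3 of 4 pairs and not in replicate 3 (0.171, 0.394, -0.06 and 0.281 for replicates 1 to 4, with 3 of 4 best matched to their own number, a hint of pairing from the data and not the design). Replicate 3 was also the only number whose libraries differed in Y-linked counts, with 0.0681 CPM in Ndrg3ctrl and 416 CPM in Ndrg3TKO. The column headers of the counts are numbers that fall in runs, each with both genotypes, and what they stand for is not given. With the replicate block 8 members were called, all lower in Ndrg3TKO (Ifih1, Oas3, Oasl1, Oasl2, Ifit2, Gbp3, Gbp7 and Irgm1), beside 800 of all genes, or 5.47% (2.49% lower), and 8 of the other pathway genes. With the block and Y-linked counts as a term 16 members were called, all lower, beside 1187 of 14633 tested genes, or 8.11%, and 18 other pathway genes. The 16 members were Irf7, Ifih1, Dhx58, Zbp1, Oas3, Oasl1, Oasl2, Ifit1, Ifit2, Ifit3, Gbp2, Gbp3, Gbp7, Irgm1, Ifi47 and Trim30a. Of all tested genes 521 were called lower in this fit. With the Y-linked term alone 1 member, 437 of 14633 tested genes and 3 other pathway genes were called. With no filter on low counts 1 member and 274 of 24678 tested genes were called. DESeq2 called 309 genes and 2 of the other pathway genes. The cause of these differences was not tested. Leaving out each library in turn, 0 members, 90 to 158 of all genes and 1 to 2 other pathway genes were called.

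Over 720 pairs of a member and a setting, 656 kept direction and call, 26 passed the threshold newly and 38 changed sign, in 14 members. The log2 fold change was -0.00246 and -0.00116 for Adar, and -0.0333 and -0.00557 for Ifi27l2a, with the Y-linked term without and with the block, -0.0226 for Oas1a with the term, 0.0112 and 0.0140 for Oas2 with the block without and with the term, and 0.00380 for Tyk2 with library totals alone. Leaving out single libraries turned the sign of Irf9 (-0.0691 to 0.00726), Stat2 (-0.0568 to 0.012), Eif2ak2 (-0.0244 to 0.0522), Adar (-0.0185 to 0.0234), Isg15 (-0.0996 to 0.0835), Oas1a (-0.0264 to 0.177), Oas2 (-0.144 to 0.119), Ifit1 (-0.174 to 0.0587), Igtp (-0.107 to 0.0192), Parp14 (-0.0417 to 0.0376), Ifi27l2a (-0.0389 to 0.197), Ifi203 (-0.0966 to 0.00128), Xaf1 (-0.00322 to 0.0791), Rtp4 (-0.112 to 0.0332) and Tyk2 (-0.026 to 0.0171). The type I interferon genes themselves, with up to 2 counts, lie under the floor of 3 counts, and the members, with at least 261, lie above it. Whether depth or absent expression sets the low counts of the interferon genes was not tested.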
